A study of Rattus norvegicus with 421 samples.

Results

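The genes described here are 8 genes of the hepatic matrix, Dcn, Lum, Col3a1, Col1a1, Col1a2, Sparc, Timp1 and Lox, found by symbol in the annotation of the array. They were measured by 12 of 15866 probe sets, as 8 of 10411 genes with a symbol of their own. Livers of male Wistar Hanover rats, aged 8 to 10 weeks when dosing began, given 1 of 30 compounds or only the vehicle by gavage once a day, were profiled on Affymetrix RAE230A arrays, each animal on an array of its own. The series holds 293 treated and 128 vehicle arrays in 98 treated and 38 vehicle groups, mostly of 3 animals, and each treated group was set against the vehicle group named in its label, which shares its study block, its vehicle and its time.

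The treated groups that carry the results below received N-Nitrososmorpholine (NNM, 3.5 mg/kg), N-Nitrosopiperidine (NPip, 20 mg/kg), 4-(methylnitrosamino)-1-(3-pyridyl)-1-butanone (NNK, 20 mg/kg), Aflatoxin B1 (AB1, 0.24 mg/kg), Acetamide (AA, 3000 mg/kg), Ethionine (ETH, 200 mg/kg), Dehydroepiandrosterone (DHEA, 600 mg/kg), Nifedipine (Nif, 3 mg/kg), Allyl alcohol (AlAl, 36 mg/kg), Methylcarbamate (Mcarb, 400 mg/kg), Prazosin (Praz, 1 mg/kg) or Phenobarbital (PB, 80 mg/kg), all in the study blocks with carboxymethylcellulose. Dimethylnitrosamine (DMN, 4 mg/kg), C.I Direct Black (CIDB, 146 mg/kg), Cyproterone acetate (CPA, 100 mg/kg), Methylendianiline (MDA, 50 mg/kg) and 3-Methylcholanthrene (3-MC, 25 mg/kg) were set against corn oil. Acetaminophen (Aap, 4250 mg/kg) was set against saline and was sampled at 6, 12, 24 and 48 hours, whereas the other compounds were sampled at day 1, 3, 7 or 14. The other compounds, which enter the counts over all 98 groups, were 2-Acetylaminofluorene (2-AAF, 1.2 mg/kg), Cefuroxime (CFX, 250 mg/kg), Clonidine (Clon, 0.1 mg/kg), Diethyl-stilbestrol (DES, 10 mg/kg), Ibuprofen (Ibup, 94 mg/kg), Methapyrilene HCl (MPy, 60 mg/kg), Piperonyl-butoxide (PBO, 1200 mg/kg), Propranolol (Prop, 40 mg/kg), Thioacetamid (TAA, 19.2 mg/kg) and Wy-14643 (Wy, 60 mg/kg) in the blocks with carboxymethylcellulose, and 2-Nitrofluorene (2-NF, 44 mg/kg) and 1,4-Dichlorobenzene (DCB, 300 mg/kg) in those with corn oil. Per the study's methods, the treated animals put on arrays were those in which histopathology showed some change in the liver, so the treated groups leave out animals without such changes. How the vehicle animals were picked is not stated there. Compounds of 1 study block share the same vehicle arrays (NNM with NNK and AlAl, AB1 with AA, DHEA and Mcarb, CIDB with DMN, CPA with MDA, Nif with Praz), so their changes at the same day are not independent of each other.

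Hepatic stellate cells store vitamin A in the healthy liver and, after injury, can turn into contractile myofibroblasts that lay down fibrillar collagen. Type I collagen is built from the chains of Col1a1 and Col1a2 and type III collagen from that of Col3a1, while Dcn and Lum are small leucine-rich proteoglycans that bind collagen fibrils. Sparc is a secreted collagen-binding protein, Timp1 inhibits the matrix metalloproteinases that degrade matrix, and Lox is the copper enzyme that cross-links collagen and elastin. In whole-liver RNA, fewer cells of a type and less RNA per cell cannot be told apart.

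The levels of the 8 genes over all arrays spanned most of the range of the array. On the log2 scale of the array, Col3a1 averaged 10.94, Sparc 9.73, Col1a2 8.36, Col1a1 8.11, Dcn 7.30, Timp1 7.15, Lox 5.81 and Lum 5.31. Lum and Lox were dim, with means above only 10.2% and 18.2% of all probe sets, and a level of one probe set cannot be set against that of another. The spread between animals of a group was wide for most members. Its within-group SD was 0.33 for Dcn, 0.40 for Lum, 0.37 for Timp1 and 0.26 for Col3a1, all above the SD of 95.5% of probe sets or more, against 0.14 for Sparc. On 7 arrays markers of skeletal muscle or pancreas stood at least 2.44 above their median over all arrays. Changes of the brightest probe sets that rest on such an array are given with and without it. Hepatocyte markers (9 genes) averaged at least 13.12 on every array. Of 22 stellate cell and myofibroblast markers, 19 were measured, and Ecm1 averaged 10.59, Reln 9.54, Lrat 7.58, Des 6.84 and Ngfr 5.97 over all arrays. The 8 genes are matrix products that portal fibroblasts and other mesenchymal cells make as well, so the name stellate is taken here only as the name of the gene set.

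A member was called changed in a group at a Benjamini-Hochberg adjusted p below 0.05 (limma, over all probe sets) and a change of at least 1.5-fold. Of 784 pairs of a member and a treated group, 29 were called higher and 9 lower, as against 1.02% higher and 0.731% lower over all probe sets and groups. The calls fell in 22 of 98 groups and in 14 of 30 compounds. At least 3 members were called in only 3 groups, NNM at day 7 (5 higher), AB1 at day 7 (4 higher) and DHEA at day 14 (3 lower). Dcn gave 12 of the calls for higher levels and Timp1 7, whereas Col3a1 gave 6 of the 9 calls for lower levels.

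**Figure D1:**
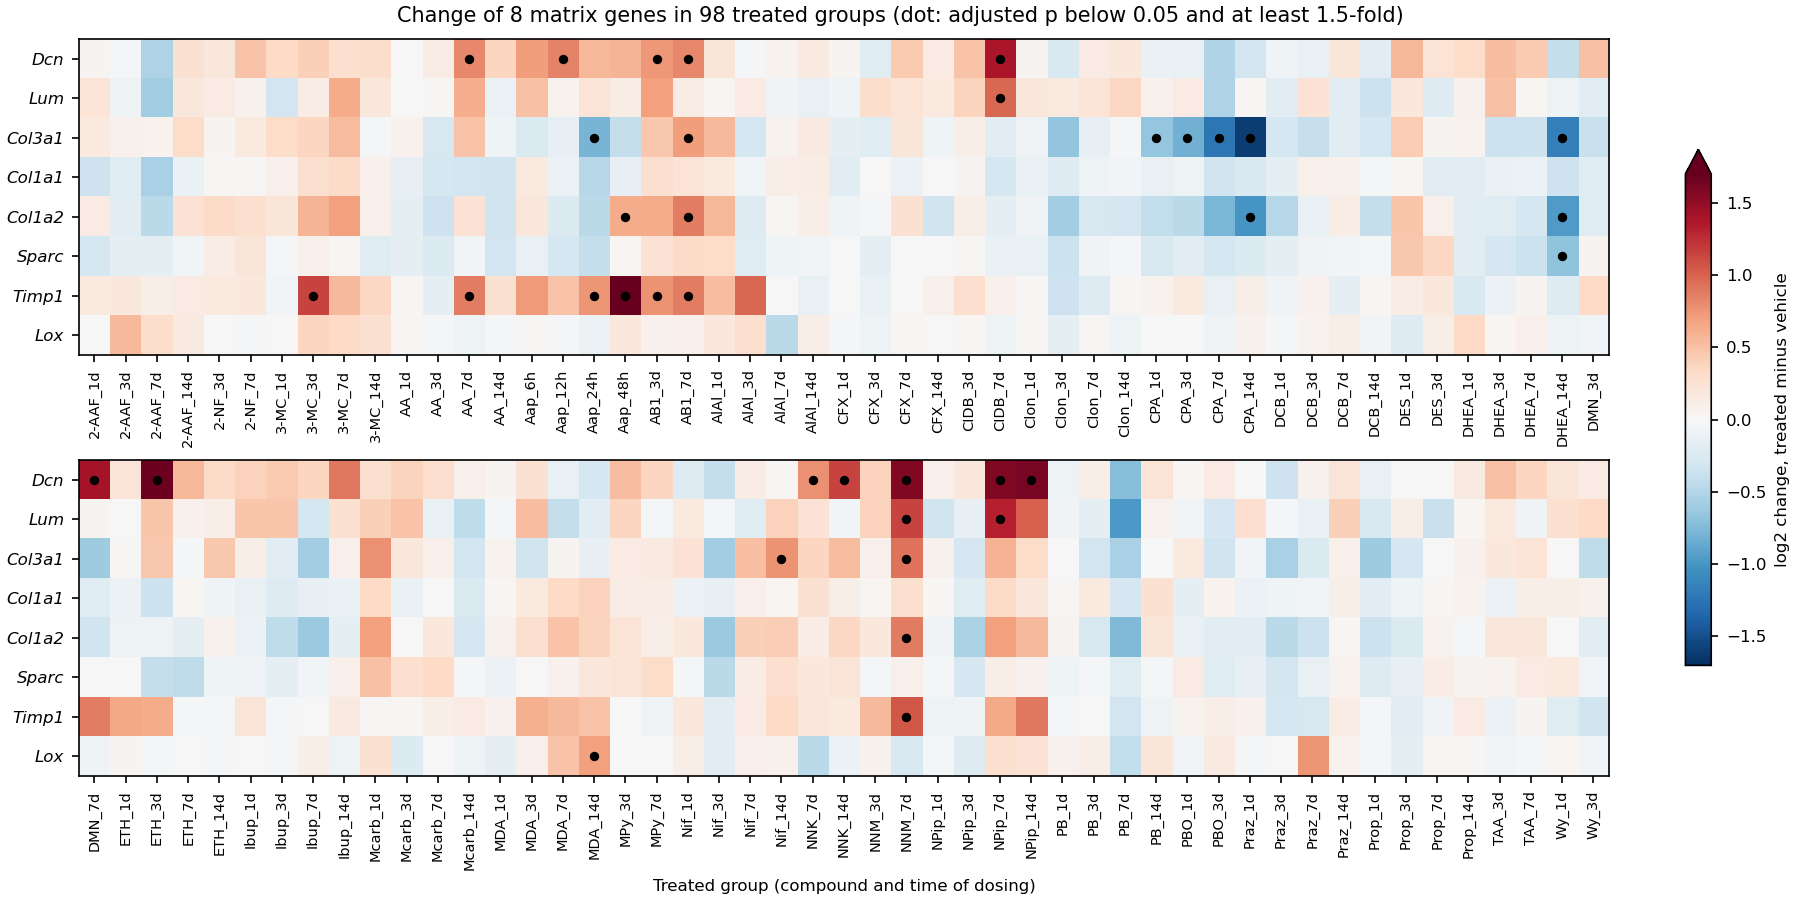
Log2 change (treated minus vehicle, colour) of the 8 genes (rows) in the 98 treated groups (columns, by compound and time), with a dot where the change was called. Dcn carries 12 dots, all on red cells, while the blue cells of Col3a1 with a dot are in CPA at all 4 times, DHEA at day 14 and Aap at 24 hours.

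Dcn, 1 of the 2 proteoglycans, had the most calls. It was called higher in 12 groups of 9 compounds and lower in none, with 21 groups higher and 1 lower at an unadjusted p below 0.05. In all 12 groups every treated array lay above every vehicle array. The groups were picked by the call, so this lack of overlap describes them and is no further test. The same holds for every other called gene below. In ETH at day 3 Dcn measured 8.43, 8.34 and 8.89 in treated animals, against 6.66, 6.88, 6.85 and 7.16 in vehicle animals, a change of 1.67 ± 0.25 (SE, 3.18-fold, adjusted p = 2.52e-09 by limma, as for all adjusted p values below). ETH at day 3 is also the group with the broadest response of these, as 7.91% of all probe sets were called higher there.

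Dcn was called higher in all 4 N-nitroso compounds of the series, at day 7, day 14 or both. In NNM at day 7 it measured 8.71, 8.39 and 8.53 in treated animals, against 6.84 to 7.05 in 6 vehicle animals (1.58 ± 0.23, adjusted p = 3.14e-08). NPip at day 14 gave 8.96, 8.76 and 8.28 in treated animals, against 6.86, 7.19 and 7.09 in vehicle animals (1.62 ± 0.27, adjusted p = 2.58e-06, 0.668% of all probe sets called higher). DMN at day 7 gave 8.29, 8.05 and 8.63 in treated animals, against 7.11, 6.94 and 6.67 in vehicle animals (1.42 ± 0.27, adjusted p = 6.52e-05, 0.952% of all probe sets called higher). In each of these groups the lowest treated animal stood well clear of the highest vehicle animal. NNK at day 14 reached 8.14, 8.07 and 7.96 in treated animals, against 6.71 to 7.10 in 6 vehicle animals (1.15 ± 0.23, adjusted p = 0.000173, 0.813% of all probe sets called higher). The first of these animals had pancreas RNA on its array, and without such arrays the change was 1.11 (adjusted p = 0.00171). At day 7 of NNK the change of Dcn was 0.77 ± 0.23 (adjusted p = 0.0498, 0.252% of all probe sets), just past the threshold. The doses of the 4 compounds differ (3.5, 20, 4 and 20 mg/kg for NNM, NPip, DMN and NNK), so the values stand side by side and were not compared.

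At the earlier times of these compounds Dcn was not called. The change was 0.09 for NPip at day 1 and 0.20 at day 3, 0.39 for NNM at day 3 (adjusted p = 0.7) and 0.49 for DMN at day 3. The difference between the last and the first time was not called for Dcn in any compound.

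In NPip at day 7 Dcn measured 7.50, 8.62 and 9.75 in treated animals, against 6.92, 7.36 and 6.85 in vehicle animals (1.58 ± 0.27, adjusted p = 2.49e-06, 1.43% of all probe sets called higher). The third treated array also held RNA of skeletal muscle, since its 11 muscle markers averaged 10.47, or 4.75 above the median of all arrays, whereas the vehicle group lay between 5.66 and 5.77. Without that array the change of Dcn was 1.01 (adjusted p = 0.0615). With all 7 arrays of the series that hold RNA of another tissue left out it was 1.01 ± 0.28 (adjusted p = 0.0372). In a fit of the compared groups alone it was not called (adjusted p = 0.264).

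The other calls of Dcn were in CIDB at day 7 (1.39 ± 0.27, adjusted p = 2.23e-05, 2.38% of all probe sets called higher), AA at day 7 (0.81 ± 0.23, adjusted p = 0.00403, 3.52%), AB1 at day 3 and day 7 (0.73 ± 0.23 and 0.82 ± 0.23, 1.3% and 2.45%) and Aap at 12 hours (0.85 ± 0.27, adjusted p = 0.038, 0.8%). With only its own groups fitted, Aap at 12 hours was not called (adjusted p = 0.196), and AA at day 7 was not called without its array 2 (0.62, adjusted p = 0.0911). The call in AB1 at day 3 was lost in 3 of 9 fits with 1 array left out (0.51, adjusted p = 0.243 without AB1 array 1). CIDB and DMN at day 7 share the corn oil arrays of their block, which measured 7.11, 6.94 and 6.67. Their Dcn levels, 8.01, 8.55 and 8.33 in CIDB animals, lay in the same range as those of DMN.

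**Figure D2:**
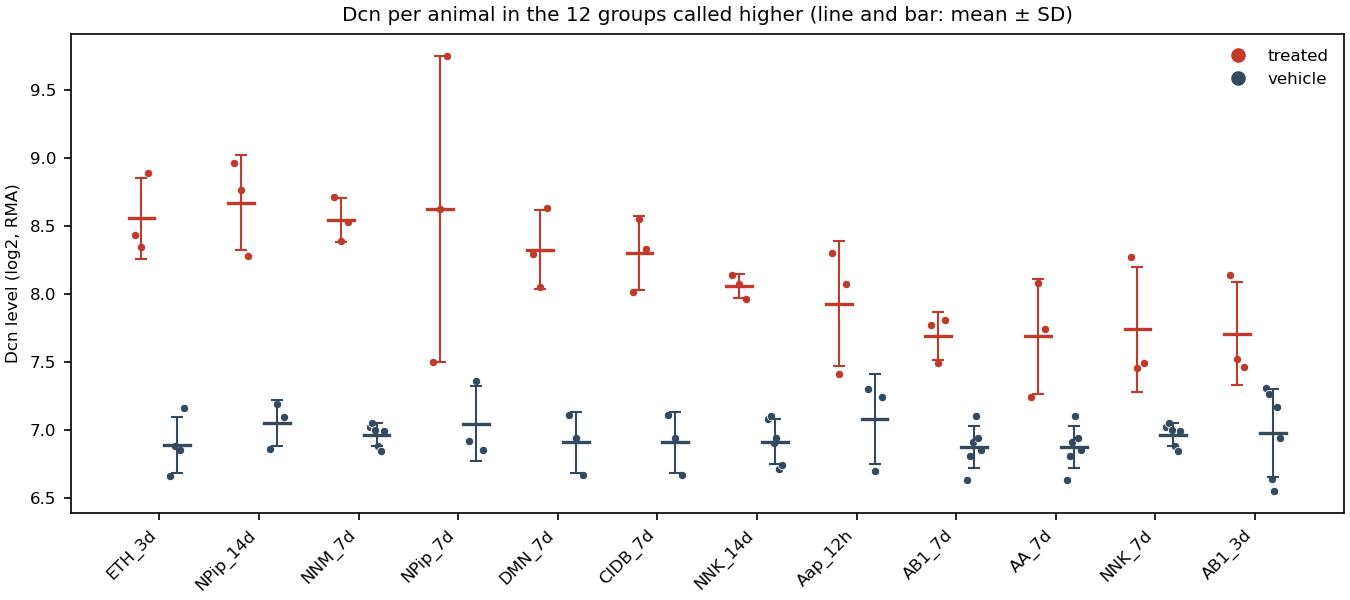
Dcn level (log2) of each animal in the 12 groups where it was called higher, treated animals in red left of vehicle animals in dark blue, with mean and SD. The groups run from the largest change (ETH at day 3) to the smallest (AB1 at day 3), and the 3 animals of NPip at day 7 spread from 7.50 to 9.75.

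Lum, the other proteoglycan, was called higher in 3 groups, all of them among the groups where Dcn was called. In NNM at day 7 it measured 7.04, 6.08 and 6.60 in treated animals, against 4.85 to 5.84 in 6 vehicle animals (1.15 ± 0.28, 2.22-fold, adjusted p = 0.00313). In CIDB at day 7 it measured 5.61, 6.58 and 6.20 in treated animals, against 5.01, 5.07 and 5.38 in vehicle animals (0.98 ± 0.33, adjusted p = 0.0255), a call that was lost in 4 of 6 fits with 1 array left out. The call in NPip at day 7 rested on the array with muscle RNA, where Lum was 8.67 against 4.98 and 5.43 in the other treated animals and 4.99 to 5.06 in vehicle animals. Its change was 1.33 ± 0.33 (adjusted p = 0.00323) with that array and 0.17 without it (adjusted p = 0.942).

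NPip at day 14, where no array held RNA of another tissue, gave Lum 6.03, 5.77 and 6.33 in treated animals, against 4.87, 5.14 and 5.06 in vehicle animals. These groups did not overlap, and the change of 1.02 ± 0.33 missed the threshold (adjusted p = 0.0674). DMN at day 7, with its rise of Dcn, gave a change of Lum of 0.05 ± 0.33 (adjusted p = 0.959). ETH at day 3 gave 0.46 ± 0.31 (adjusted p = 0.231).

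The most negative changes of both proteoglycans were in PB at day 7, where the vehicle group holds an array with muscle and pancreas RNA. Dcn was 6.94, 7.06 and 6.75 in PB animals, against 7.07, 7.05 and 8.80 in vehicle animals, and Lum 5.23, 4.89 and 4.91, against 5.09, 5.21 and 7.67. The changes of -0.72 for Dcn and -0.98 for Lum were not called. Without the arrays that hold RNA of another tissue both were -0.14.

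Col3a1, the chain of type III collagen, gave the largest falls. Under CPA it was called lower at all 4 times, with changes of -0.66 ± 0.21 at day 1, -0.82 ± 0.21 at day 3, -1.22 ± 0.21 at day 7 and -1.62 ± 0.21 at day 14 (adjusted p = 0.0186, 0.0033, 4.97e-06 and 2.38e-10, while 1.99%, 1.71%, 1.05% and 1.79% of all probe sets were called lower). At day 14 the CPA animals measured 9.45, 9.54 and 8.99, against 10.85, 11.00 and 10.98 in corn oil animals, so the mean was 0.326 of that of the vehicle. At day 7 they measured 10.06, 9.43 and 9.74, against 10.81, 10.94 and 11.14. The groups did not overlap at day 1, 7 and 14, and at day 3 CPA animals of 9.73, 9.89 and 10.52 overlapped vehicle animals of 10.34, 11.01 and 11.25. The change became more negative at each time, but the difference between day 14 and day 1 of CPA was not called for Col3a1 or for any other member. The call at day 3 was lost in a fit of the compared groups alone (adjusted p = 0.0907).

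Col1a2, a chain of type I collagen, moved with it under CPA, but less. Its changes were -0.41, -0.46 and -0.77 at day 1, 3 and 7, none of them called, and at day 14 its mean was 0.501 of that of the vehicle (adjusted p = 0.00742). At day 14 the CPA animals measured 7.59, 7.54 and 7.10, against 8.16, 8.62 and 8.45 in corn oil animals, with no overlap. The call was lost without CPA array 3 (-0.84, adjusted p = 0.0584) or without vehicle array 2 (-0.89, adjusted p = 0.0504). The second probe set of Sparc was called lower under CPA at day 7 and day 14 (-0.79 ± 0.18 and -0.73 ± 0.18), while its brighter probe set was at -0.30 and -0.23 and was not called. Dcn, Lum, Timp1 and Lox were not called under CPA at any time.

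DHEA was given over the same times in another block, and Col3a1 was called lower at day 14. The change was 0.06 at day 1, -0.36 at day 3, -0.36 at day 7 and -1.16 ± 0.21 at day 14 (adjusted p = 3.36e-06). Of the members, 3 were called lower at day 14, where 2.24% of all probe sets were called lower. Col3a1 measured 10.23, 10.32 and 9.93 in DHEA animals, against 11.39, 11.25 and 11.34 in vehicle animals. Col1a2 measured 7.96, 7.87 and 7.44 in DHEA animals, against 8.89, 8.50 and 8.74 in vehicle animals (-0.96 ± 0.27, adjusted p = 0.00497). Sparc, whose groups were tight, measured 9.30, 9.27 and 9.24 in DHEA animals, against 10.00, 9.91 and 9.93 in vehicle animals (-0.68 ± 0.11, adjusted p = 1.58e-07). These are values of its brighter probe set, and its dimmer probe set was not called in DHEA at day 14. In all 3 genes no DHEA animal reached the lowest vehicle animal. Without DHEA array 3 the call of Col1a2 was lost (-0.80, adjusted p = 0.0637).

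The difference between day 14 and day 1 of DHEA was itself called for Col3a1 (-1.23 ± 0.30, adjusted p = 0.00455, against 1.49% of all probe sets called lower in that difference). Dcn was not called in DHEA, with changes of 0.31, 0.52 and 0.44 at day 1, 3 and 7 and of -0.40 at day 14 (adjusted p = 0.332).

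**Figure D3:**
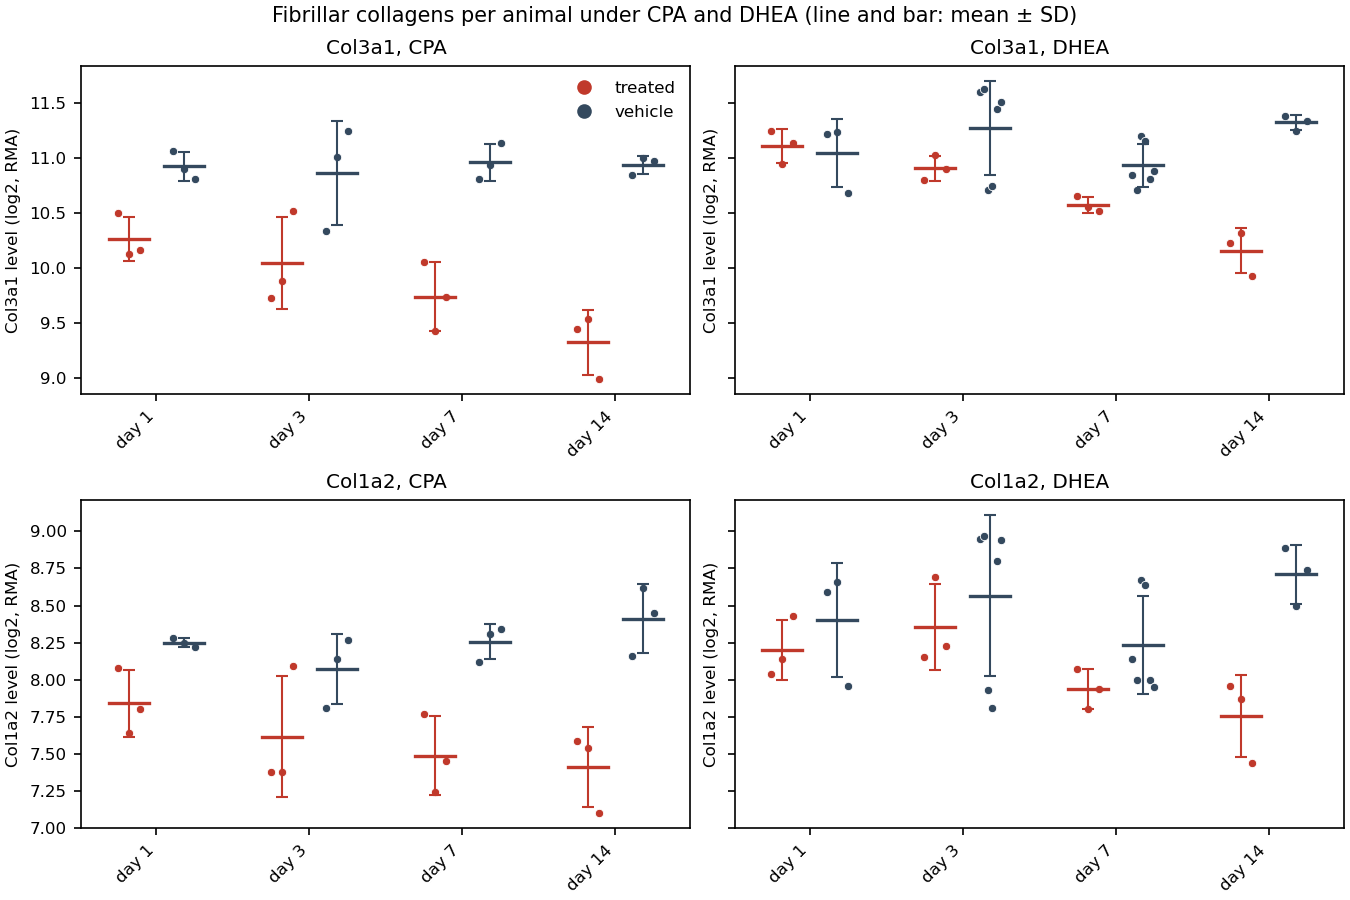
Col3a1 (top) and Col1a2 (bottom) level (log2) of each animal under CPA (left) and DHEA (right) by day, treated animals in red left of vehicle animals in dark blue, with mean and SD. The mean of Col3a1 in CPA animals is lower at each later day, and DHEA and vehicle animals are farthest apart at day 14, at 9.93 to 10.32 against 11.25 to 11.39.

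Other matrix genes were lower at day 14 as well. Of 34 other matrix proteins, 8 were called lower under CPA and 5 under DHEA at that day, and none higher (median change -0.29 and -0.28, against 0.03 and 0.01 over all probe sets). Under CPA the list was already low at day 1, with a mean of 7.53 against 7.75 in vehicle animals, and stood at 7.46 against 7.77 at day 14. Under DHEA its mean was 7.67 against 7.71 at day 1 and 7.46 against 7.78 at day 14. Those named for CPA at day 14 are Nid1, a basement membrane linker (-1.10 ± 0.17), Col14a1, a fibril-associated collagen (-1.04 ± 0.16), and Bgn, a proteoglycan related to Dcn (-0.78 ± 0.10). Under DHEA they are Mgp (-0.94 ± 0.24), Col14a1 (-0.80 ± 0.16) and Col6a1, a chain of type VI collagen (-0.66 ± 0.13). Stellate cell markers were lower as well, 3 of 19 under CPA and 4 of 19 under DHEA. Lrat, which esterifies retinol for storage, fell by 1.06 ± 0.19 under CPA and by 0.98 ± 0.19 under DHEA, and Reln by 0.80 ± 0.16 and 0.63 ± 0.16. Acta2, the smooth muscle actin of myofibroblasts, was at -0.25 and 0.07 and was not called in either.

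Markers of other non-parenchymal cells moved in the same groups. Of 10 macrophage markers, 7 were called lower under CPA at day 14 and 7 under DHEA at day 14, and of 8 sinusoidal endothelial markers 3 and 4. Over all probe sets 1.79% and 2.24% were called lower in these groups. The macrophage markers averaged 8.73 to 9.12 in CPA animals, against 9.35 to 9.88 in their vehicle animals, and 8.70 to 9.05 in DHEA animals, against 9.51 to 9.69. The endothelial markers averaged 7.55 to 7.89 in CPA animals, against 8.01 to 8.44, and 7.60 to 7.96 in DHEA animals, against 8.17 to 8.33. The lower macrophage markers were not confined to day 14. Under CPA 6, 6 and 2 of the 10 were called lower at day 1, 3 and 7. Under DHEA 2 were called higher at day 1, and 4 and 2 lower at day 3 and 7. The part of these cells in the falls of Col3a1 and Col1a2 was not tested.

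Col3a1 was called lower in 1 more group, Aap at 24 hours, with 10.39, 10.47 and 10.21 in Aap animals, against 11.08, 11.17 and 11.20 in saline animals (-0.80 ± 0.21, adjusted p = 0.00124, 4.08% of all probe sets called lower). Col1a1 and Sparc passed the adjusted p in the same group with changes under 1.5-fold (-0.49 ± 0.15, adjusted p = 0.0067, and -0.40 ± 0.11, adjusted p = 0.00172). Serpinh1, the collagen chaperone, fell there by 1.00 ± 0.24.

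Col3a1 and Col1a2 rose in NNM at day 7, the group with the most members called (5 of 8, against 0.851% of all probe sets called higher). Col3a1 measured 11.81, 11.97 and 11.90 in NNM animals, against 10.86 to 11.06 in 6 vehicle animals (0.93 ± 0.18, 1.90-fold, adjusted p = 8.43e-05). Col1a2 measured 9.39, 9.29 and 9.80 in NNM animals, against 8.41 to 8.87 in vehicle animals (0.88 ± 0.23, adjusted p = 0.008). Timp1 measured 7.71, 8.25 and 8.04 in NNM animals, against 6.81 to 7.17 in vehicle animals (1.05 ± 0.26, 2.07-fold, adjusted p = 0.00363). With Dcn and Lum these are the 5 members called, and none of the 5 overlapped between the groups. The calls of Dcn and Col3a1 held in all 9 fits with 1 array left out, while that of Lum was lost without NNM array 1 (0.92, adjusted p = 0.107), that of Timp1 without array 2 (0.92, adjusted p = 0.0671) and that of Col1a2 without array 3 (0.73, adjusted p = 0.123). Sparc was at 0.09 ± 0.10 (adjusted p = 0.765). At day 3 of NNM no member was called, and the difference between day 7 and day 3 was not called for any member.

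Col1a1 was read by 2 probe sets that differed in NNM at day 7. The brighter measured 8.50, 8.30 and 8.41 in NNM animals, against 7.88 to 8.38 in vehicle animals (0.27 ± 0.13, adjusted p = 0.273). The dimmer measured 8.60, 8.32 and 9.42 in NNM animals, against 7.03 to 7.69 in vehicle animals (1.49 ± 0.35, adjusted p = 0.00155). Over the 98 groups the changes of the 2 probe sets correlated at r = 0.825, but the brighter was called in none (7 groups higher and 10 lower at an unadjusted p below 0.05) and the dimmer was called higher in 4, AB1 at day 7, MDA at day 14, NNM at day 7 and NPip at day 7, and lower in 1, DHEA at day 14. The range of its changes was also wider, from -1.26 to 1.57, as against -0.55 to 0.40 for the brighter. The -0.55 was in 2-AAF at day 7, whose vehicle group holds an array with muscle and pancreas RNA, and was -0.35 without such arrays. NPip at day 7 holds the array with muscle RNA, and the dimmer probe set is not given without it here. The dimmer probe set of Col1a2 was called higher in 2 groups and lower in 3, against 3 and 2 for its brighter one. Their changes correlated at r = 0.913.

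Of the other matrix proteins, 5 of 34 were called higher in NNM at day 7, Col5a2, a fibril-nucleating collagen (0.91 ± 0.15), Mfap4 (0.81 ± 0.13), Mgp (0.80 ± 0.20), Col14a1 (0.64 ± 0.14) and Col6a3 (0.60 ± 0.14), with a median change of 0.20 over the list. Mmp12, the macrophage elastase, rose by 1.52 ± 0.14 (adjusted p = 3.15e-19). Of 19 stellate cell and myofibroblast markers, Tagln, an actin-binding protein of contractile cells (0.83 ± 0.20), and Vim, an intermediate filament protein (0.69 ± 0.21), were called higher, while Lrat (0.16 ± 0.17), Des (0.17 ± 0.13) and Acta2 (0.34 ± 0.11, adjusted p = 0.0531) were not called. Of 10 macrophage markers 2 were called higher, Gpnmb (1.71 ± 0.28) and Lgals3 (1.14 ± 0.22), and Cd14 lower (-0.78 ± 0.17), and the list averaged 9.36 to 9.64 in NNM animals, against 8.94 to 9.48 in vehicle animals. None of 8 endothelial and none of 11 bile duct markers was called.

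AB1 at day 7 was the other group with several members higher (4 of 8, against 2.45% of all probe sets). Col3a1 measured 11.62, 11.18 and 12.16 in AB1 animals, against 10.71 to 11.20 in 6 vehicle animals (0.72 ± 0.18, adjusted p = 0.00162). Col1a2 measured 8.97, 8.61 and 9.74 in AB1 animals, against 7.95 to 8.67 in vehicle animals (0.87 ± 0.23, adjusted p = 0.00278). The lowest AB1 animal overlapped the vehicle animals in both genes. Dcn (7.77, 7.49 and 7.81, against 6.63 to 7.10) and Timp1 (7.55, 7.38 and 8.07, against 6.61 to 7.04) did not overlap. The third animal was the highest in all 4 genes, and without its array none of the 4 was called, at changes of 0.46 for Col3a1, 0.56 for Col1a2, 0.76 for Dcn and 0.67 for Timp1 (adjusted p = 0.192, 0.229, 0.0659 and 0.184). Lum was at 0.12 ± 0.28 (adjusted p = 0.848) there, unlike in NNM, a difference that was not tested.

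Other genes that were higher in AB1 at day 7 included the basement membrane collagens Col4a1 (1.06 ± 0.13) and Col4a2 (1.07 ± 0.11), 6 of 34 other matrix proteins in all, and the stellate cell markers Vim (1.16 ± 0.21), Cygb (0.75 ± 0.10) and Rgs5 (0.59 ± 0.10). The stellate cell markers named are from a list of 19 measured and do not show how the whole list moved. Ccn2, a matricellular protein downstream of TGF-beta, rose by 0.97 ± 0.22 and Tgfb1 by 0.72 ± 0.11. Of 11 bile duct markers 6 were called higher, with Krt19 at 1.73 ± 0.24, and of 10 macrophage markers 7 higher and 1 lower. The macrophage list averaged 9.40 to 10.10 in AB1 animals, against 8.81 to 9.41 in vehicle animals. The part of these cells in the change of the members was not tested.

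In Nif at day 14 Col3a1 was called higher (0.473% of all probe sets were), with 11.10, 11.25 and 10.98 in Nif animals, against 10.26, 10.28 and 10.48 in vehicle animals (0.77 ± 0.21, adjusted p = 0.00868). The call was lost without Nif array 2 (0.70, adjusted p = 0.0688). Of the stellate cell markers, Lrat (0.77 ± 0.19), Reln (0.60 ± 0.16) and Ecm1 (0.59 ± 0.13) were called higher in the same animals. Col3a1 averaged 10.34 in this vehicle group, the lowest of the 38 vehicle group means.

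Dcn and the collagens did not keep step. Of the 12 groups where Dcn was called higher, Col3a1 was called higher in 2, NNM and AB1 at day 7, and its change lay below 0 in 3. In DMN at day 7 Dcn was at 1.42 and Col3a1 at -0.61 (adjusted p = 0.0755), and in CIDB at day 7 at 1.39 and -0.17. In none of the 6 groups where Col3a1 was called lower was Dcn called. Over the 98 groups the changes of Col3a1 and Col1a2 correlated at r = 0.823, of Col1a2 and Sparc at 0.705, of Dcn and Lum at 0.656, of Dcn and Col3a1 at 0.468 and of Dcn and Lox at -0.072. These points share vehicle arrays within a block, and the correlations are descriptions. They include NPip and PB at day 7, whose arrays with RNA of another tissue were kept. Without such arrays Dcn and Lum changed by 1.01 and 0.17 in NPip and by -0.14 and -0.14 in PB at that day. Over the deviations of all arrays from their group means, Col3a1 and Col1a2 correlated at r = 0.781 and Dcn and Col3a1 at 0.369.

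Timp1 had the largest single change of any member. It was called higher in 7 groups of 5 compounds and lower in none, with 15 groups higher and 0 lower at an unadjusted p below 0.05. In Aap animals at 48 hours it measured 9.57, 7.91 and 10.76, against 7.09, 7.42 and 7.23 in saline animals (2.17 ± 0.30, 4.49-fold, adjusted p = 1.74e-10). The animals differed widely (SD 1.43 in Aap animals and 0.17 in saline animals), and in a fit of the compared groups alone the adjusted p was 0.0536, while without Aap array 3 the change was 1.49 (adjusted p = 7.61e-05). At 48 hours 6.01% of all probe sets were called higher.

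The stretch of 250 bases before the annotated start of Timp1, and for Col1a2 the first 86 of the same 250 bases, are shown because these genes had the largest rise and moved in both directions. The sequences are RefSeq's, build GRCr8, for Timp1 chrX:3771123-3771372 on the minus strand and for Col1a2 chr4:33518307-33518392 on the plus strand, 5′ to 3′ along the gene. The capitals mark a match to TGAGTNA, the letters bound by AP-1 factors, in Timp1 and matches to CCAAT and TATAAA in Col1a2.
Timp1: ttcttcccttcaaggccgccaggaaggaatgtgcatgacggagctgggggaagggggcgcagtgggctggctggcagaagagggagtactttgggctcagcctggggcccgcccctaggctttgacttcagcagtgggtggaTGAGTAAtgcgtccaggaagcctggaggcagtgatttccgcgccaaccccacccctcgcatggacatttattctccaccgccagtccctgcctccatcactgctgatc
Col1a2: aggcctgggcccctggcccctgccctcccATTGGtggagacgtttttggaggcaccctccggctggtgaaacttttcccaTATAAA
All 3 motifs were searched on both strands and do not overlap here. The Col1a2 stretch ends at its TATAAA match, which begins at position -170 from the annotated start and not next to it, and whether that start is the one used in liver was not tested. Its CCAAT match lies on the minus strand of the gene (ATTGG as printed). Of the 250-base windows before the starts of 33469 rat genes, 11.8% hold TGAGTNA, 34.0% CCAAT and 12.9% TATAAA. A match is a description of the letters and not of binding. Of the 8 members, 4 matched an entry in the promoter table, and of the remaining entries Lum held CCAAT and Sparc none of the 3 motifs.

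At the earlier times of Aap the change of Timp1 was 0.73 ± 0.30 at 6 hours, 0.48 ± 0.30 at 12 hours and 0.75 ± 0.30 at 24 hours, of which that at 24 hours was called (adjusted p = 0.0955, 0.486 and 0.0446). At 24 hours it measured 8.16, 7.45 and 7.91 in Aap animals, against 6.97, 7.09 and 7.21 in saline animals, where 6.72% of all probe sets were called higher. This call was lost in 5 of 6 fits with 1 array left out. The difference between 48 and 6 hours was called (1.44 ± 0.43, adjusted p = 0.00585, against 7.08% of all probe sets called higher in it), and not in a fit of the compared groups alone (adjusted p = 0.206). An Aap array at 6 hours held muscle RNA, and without such arrays the difference was 1.37 (adjusted p = 0.0178). Col1a2 at 48 hours measured 8.89, 7.94 and 10.32 in Aap animals, against 8.74, 8.41 and 8.09 in saline animals. Its call (0.63 ± 0.27, adjusted p = 0.0496) rested on Aap array 3, without which the change was 0.00 (adjusted p = 0.995). The same animal was the highest for Timp1, Dcn (8.81) and Col3a1 (11.58).

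Some of the 19 stellate cell and myofibroblast markers changed in Aap at 48 hours, and those named do not show how the whole list moved. Vim was at 2.23 ± 0.24, Tagln at 1.90 ± 0.24 and Acta2 at 1.04 ± 0.13, while Lrat was at -1.05 ± 0.19, all called. Mmp12 (1.98 ± 0.17) and Plau (1.01 ± 0.13) were the called genes of 19 other proteases and inhibitors, and Tgfb1 rose by 1.07 ± 0.13. Of 10 macrophage markers, 4 were called higher and 1 lower (median change 0.39), against 6.01% of all probe sets called higher. Gpnmb rose by 4.28 ± 0.33 and Lgals3 by 3.47 ± 0.25, and the 10 markers averaged 10.36 to 10.65 in Aap animals, against 9.33 to 9.61 in saline animals. Their part in the change of Timp1 was not tested.

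**Figure D4:**
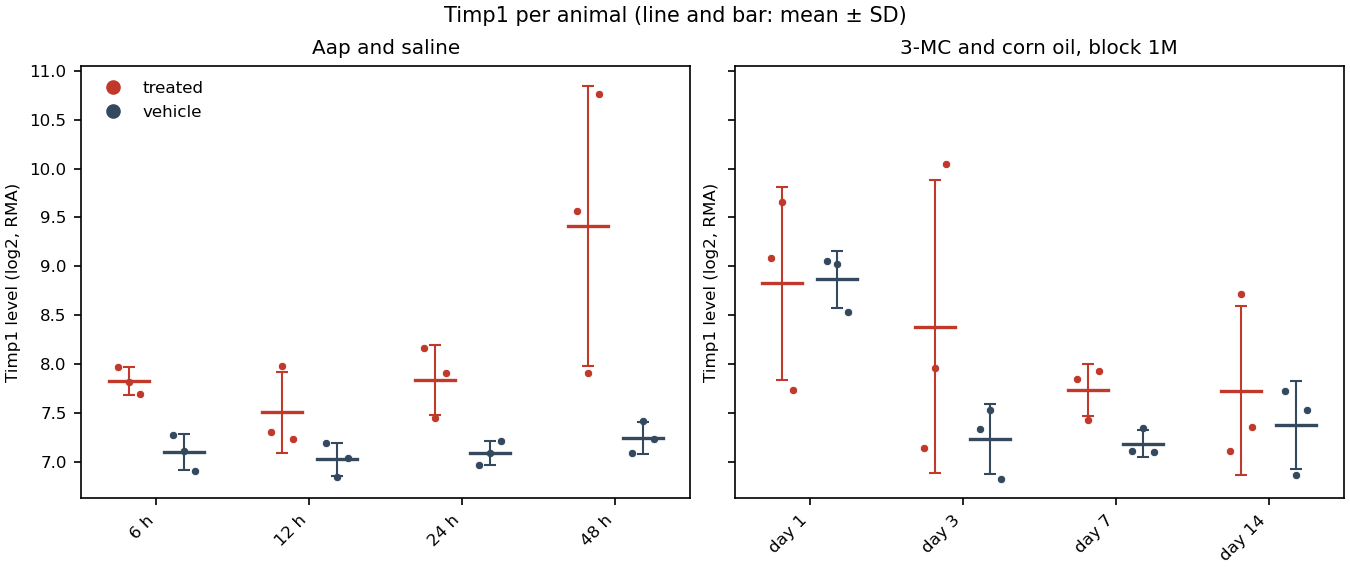
Timp1 level (log2) of each animal under Aap (left, by hour) and 3-MC (right, by day), treated animals in red left of vehicle animals in dark blue, with mean and SD. The corn oil animals of block 1M lie at 8.53 to 9.05 on day 1 and at 6.83 to 7.73 at the later days.

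The remaining calls of Timp1 were in AA at day 7 (7.10, 7.54 and 8.35 in AA animals, against 6.61 to 7.04 in vehicle animals, 0.87 ± 0.26, adjusted p = 0.00628), AB1 at day 3 (0.76 ± 0.26, adjusted p = 0.0392) and day 7, NNM at day 7 and 3-MC at day 3. Without AA array 3 the change in AA was 0.53 (adjusted p = 0.231), and without AB1 array 1 that in AB1 at day 3 was 0.37 (adjusted p = 0.483). In 3-MC at day 3 Timp1 measured 7.14, 7.96 and 10.05 in 3-MC animals, against 7.34, 7.53 and 6.83 in corn oil animals, a call that rested on array 3. Its change was 1.15 ± 0.30 (adjusted p = 0.026, 0.391% of all probe sets called higher) with that array and 0.31 (adjusted p = 0.999) without it. DMN at day 7 (0.87 ± 0.30, adjusted p = 0.0737) and NPip at day 14 (0.89 ± 0.30, adjusted p = 0.0892) missed the threshold with no overlap between treated and vehicle animals. In 4 groups Timp1 was called together with Dcn.

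Lox, the cross-linking enzyme, was called in 1 group. In MDA at day 14 it measured 7.01, 6.59 and 5.81 in MDA animals, against 5.61, 5.81 and 5.88 in corn oil animals (0.70 ± 0.22, adjusted p = 0.0288, 0.744% of all probe sets called higher), with overlap, and the call was lost in 5 of 6 fits with 1 array left out. The dimmer probe set of Lox was not called there (0.41, adjusted p = 0.246). The same 2 MDA animals were high for the dimmer Col1a1 probe set, at 9.64 and 9.92 against 6.70 in the third animal and 6.97 to 7.40 in vehicle animals. Of the 19 stellate cell and myofibroblast markers, Reln (-1.40 ± 0.16) and Ecm1 (-1.52 ± 0.13) were lower and Tagln (0.88 ± 0.24) higher in MDA at day 14. Markers named here do not show how the whole list moved. A pair of vehicle animals of the NNM block at day 7 had Lox at 7.32 and 7.36, against 5.72 to 5.90 in the other 4, and their dimmer probe set was high too (6.05 and 7.19, against 4.95 to 5.10). The lowest changes of Lox, -0.46 in AlAl and in NNK at day 7, were taken against these vehicle arrays. In Praz at day 7 a single animal at 7.89, beside 5.70 and 5.68, gave the highest change (0.75, adjusted p = 0.595).

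Sparc had the smallest SD within groups of the 8 genes (0.14). Besides the call in DHEA at day 14 it passed the adjusted p with a change under 1.5-fold in 12 groups, 6 higher and 6 lower. Examples are AB1 at day 7, where it was 10.19, 9.80 and 10.25 in AB1 animals, against 9.67 to 9.98 in vehicle animals (0.33 ± 0.10, adjusted p = 0.00699, with overlap), DHEA at day 7 (-0.36 ± 0.10, adjusted p = 0.00156) and ETH at day 3 (-0.41 ± 0.10, adjusted p = 0.000534). In ETH at day 3, Dcn was higher in the same animals. The dimmer probe set of Sparc was called higher in 3 groups, AB1 at day 7 (0.75 ± 0.15), Nif at day 14 (0.76 ± 0.18) and Mcarb at day 1 (0.74 ± 0.18, 0.151% of all probe sets called higher), and lower in 2, CPA at day 7 and day 14.

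Of 8855 genes that were not members and averaged at least 6, the 10 whose changes over the 98 groups were most like the mean change of the members were Col5a2 (r = 0.854), Anxa1 (0.802), Fbn1 (0.773), Col4a1 (0.754), Igfbp7 (0.749), Lgals1 (0.745), Col6a2 (0.735), Vim (0.735), Tagln2 (0.724) and S100a11 (0.72). Col5a2, Fbn1, Col4a1 and Col6a2 are matrix proteins themselves. By single member, Col3a1 was most like Col14a1 (0.875), Sparc most like Fstl1 (0.736), Timp1 most like Anxa2 (0.742), Dcn most like Prnp (0.702) and Lox most like Lgals1 (0.364).

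In vehicle animals the members changed little with time. The change at day 14 relative to day 1, averaged over the 8 study blocks that have both days, was called for none of the 8 members (limma), as against 0.0063% of all probe sets called higher and 0% lower. At an unadjusted p below 0.05 (limma), 5 of 8 members were lower (Col3a1, Col1a2, Sparc, Col1a1 and Timp1) and 0 higher. The share of all probe sets at that unadjusted p was not counted, so the 5 of 8 has no background beside it. The mean change was -0.20 ± 0.07 for Col3a1 (adjusted p = 0.161), -0.19 ± 0.09 for Col1a2 (adjusted p = 0.373), -0.12 ± 0.04 for Sparc (adjusted p = 0.08), -0.11 ± 0.05 for Col1a1 (adjusted p = 0.325) and -0.08 ± 0.09 for Dcn (adjusted p = 0.81). That of Timp1 was -0.21 ± 0.10 (adjusted p = 0.369), with 4 of 8 blocks below 0 and the lowest block, 1M, at -1.49. Between blocks the change of Col3a1 ranged from -0.52 to 0.28, and the mean level of the vehicle groups was 10.97, 11.15, 10.93 and 10.77 at day 1, 3, 7 and 14. Lox was lower at day 14 in 8 of 8 blocks, by 0.04 to 0.18 (mean -0.12, exact sign-flip permutation test over blocks, two-sided p = 0.00781, the smallest that 8 blocks allow). That p was the smallest among the 12 member probe sets tested this way, and it was not adjusted for their number. The main probe sets of the other members gave 0.0312 (Col1a1) to 0.43 (Timp1) by the same test. By the limma model over all probe sets Lox was not called (adjusted p = 0.543), and its dimmer probe set was at 0.01.

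Timp1 was the exception, in 1 block. The corn oil animals of block 1M measured 6.87 to 7.73 on day 14, against 8.53 to 9.05 on day 1, a change of -1.49 ± 0.30 (adjusted p = 0.0201), while 0.0063% of all probe sets, the Timp1 probe set alone, was called lower in that block. In the other 7 blocks it lay between -0.30 and 0.07. The difference of block 1M from the mean of the others was -1.47 ± 0.32 (adjusted p = 0.0351). The 3-MC animals of the same block and day were high too, at 9.08, 9.66 and 7.74, so that the change of Timp1 under 3-MC at day 1 was -0.04 ± 0.30 (adjusted p = 0.998). Dcn and Col3a1 were at -0.07 and 0.05 between these days in block 1M and were not called.

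**Figure D5:**
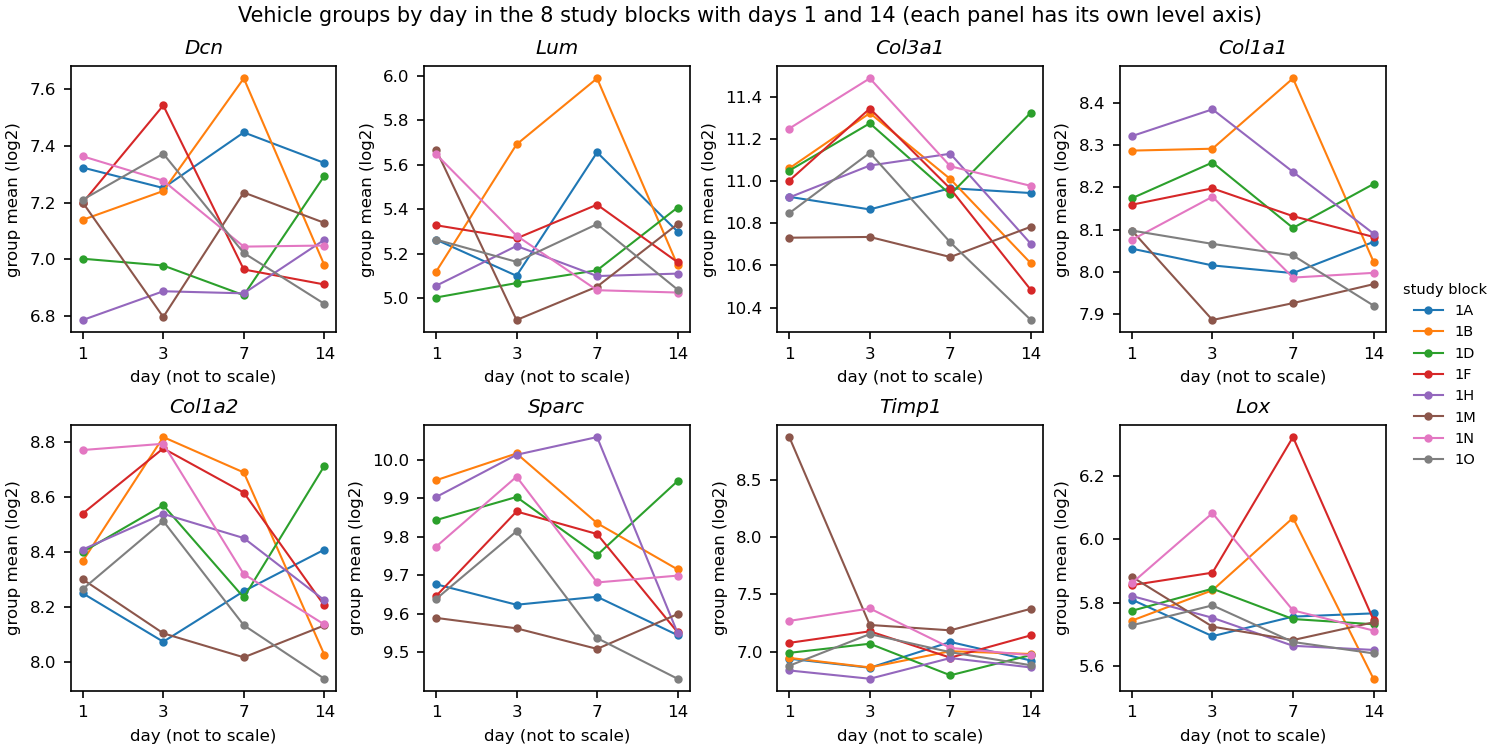
Mean level (log2) of each vehicle group by day (1, 3, 7 and 14, not to scale) for the 8 genes, 1 line per study block, each panel with its own axis. Timp1 in block 1M stands at 8.87 on day 1, above all other vehicle groups, while Col3a1, Col1a2 and Sparc are lowest at day 14 in several blocks.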

How the data were processed

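The authors read the scanned images into Microarray Suite and applied the robust multi-chip average (RMA), which corrects background, normalizes the arrays to each other and summarises the probes. The deposited values are log2 levels per probe set. The sources used here give no version of RMA. The table holds 15866 probe sets on 421 arrays with medians of 7.38 to 7.49, and precision is limited by the few arrays in a group, mostly 3. Genes were named through the platform's probe table (12783 probe sets with 1 symbol, 312 with several and 2771 not listed). A gene was represented by its brightest probe set on average, and the other probe sets of a member are given only in part.

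Groups, doses, times and vehicle groups came from the labels. The model, fitted to all 421 arrays by limma 3.58.1 in R 4.3.3, held a mean for every group, with empirical Bayes moderation (285 residual degrees of freedom), and p-values were adjusted (Benjamini-Hochberg) over all probe sets within a comparison. Values are log2 changes ± SE. The SE pools the variance of all groups and understates the spread where the animals of a group differ widely. The rule for named genes took the members in any group, up to 4 genes of each list and the 10 genes most like the members. The members, lists and tests were chosen with earlier results of these data known. On simulated data 100 of 100 probe sets changed 2-fold in the comparison of NNM at day 7 were recovered, and 1 unchanged was called. The changed probe sets were drawn at random, and each had normal noise with the same SD in every group. Most probe sets vary less between animals than Dcn, Lum and Timp1, so this recovery does not carry over to those genes. The settings varied were the arrays that enter the fit, quantile normalization, a replicate block, a minimum mean of 6, other probe sets, other thresholds, joint adjustment, and arrays left out. Figures were drawn with matplotlib.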

Additional observations from a re-analysis of the deposited data

Results flagged for a closer look

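The change of Col3a1 under DHEA differed between times by a test of the difference itself, at -1.23 ± 0.30 for day 14 minus day 1 (adjusted p = 0.00455, limma). The change of Timp1 under Aap differed likewise, at 1.44 ± 0.43 for 48 hours minus 6 hours (adjusted p = 0.00585). These were the 2 members called among 240 tests of 8 members in 30 compounds. The change of Timp1 in vehicle animals at day 14 relative to day 1 differed in block 1M from the mean of the other blocks, at -1.47 ± 0.32 (adjusted p = 0.0351), the single call among 64 such tests. In vehicle groups of 4 or 6 animals, 2 values stood apart from their group by Dixon's test at the 95% level, Sparc at 9.98 in a vehicle animal of block 1D at day 7 (group range 9.67 to 9.98) and Timp1 at 6.87 in a vehicle animal of block 1H at day 3 (6.72 to 6.87). These were 2 of 48 tests of a member in such a group, of which chance gives about 1 in 20.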

How the results depend on the processing

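Of the 38 calls of a member, 29 held in a fit of the compared groups alone, 35 after quantile normalization, 35 with an adjustment over all groups together, 37 without the 7 arrays that hold RNA of another tissue, 35 with the probe set of the lowest mean and all 34 that a filter at a mean of 6 leaves. With that filter 4 members, not 2, differed between the last and the first time. With no minimum change 19 pairs were called lower. At a minimum of 2-fold 12 pairs were called higher and 3 lower, with 3 members in NNM at day 7, 0 in AB1 at day 7 and 1 in DHEA at day 14. With 1 array left out (100 fits, which cover 32 of the 38 calls) the pairs called higher numbered 25 to 32 and those called lower 8 to 11, with 4 to 5 members in NNM at day 7, 0 to 4 in AB1 at day 7 and 2 to 3 in DHEA at day 14. The call of Col1a2 in Aap at 48 hours turned to -0.002875 without Aap array 3 (1.187 without array 2), and the change of Lox in vehicle animals to 0.01469 with the probe set of the lowest mean. The cause was not tested. Same-numbered arrays did not deviate together (every correlation above 0.1 in 4 of 98 comparisons, mean 0.0131), so the numbers were not taken as pairs. With the replicate number as a block 32 pairs were called higher and 9 lower, and all 38 calls remained. Signal near background limits Lum and Lox.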
